A study of Mus musculus with 12 samples.

Results

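The genes described here encode the cargo of the chromaffin granule, the dense-core vesicle in which cells of the adrenal medulla store catecholamines, and the enzymes that cut that cargo into peptides. They were chosen by name with earlier results of these data known, but with no threshold on a measured value. The choice took 10 of the 24421 genes in the deposited table. These were the granins Chga, Chgb, Scg2, Scg3, Scg5 and Vgf, the neuropeptide precursors Npy and Penk, and the prohormone convertases Pcsk1 and Pcsk2. RNA had been sequenced from whole adrenal glands, cleaned of adherent fat, of 2-month-old female mice on a mixed sv129-C57BL/6 background. Each mouse of the Abcg1 cKO and Abca1 cKO groups carried a Cre recombinase at the aldosterone synthase (Cyp11b2) locus, with 2 conditional alleles of the cholesterol transporter gene Abcg1 or Abca1, respectively. The design description has control mice carry the Cre and no conditional allele, whereas the study's methods name littermates that had either only the Cre or a single conditional allele. Each group had 4 libraries, and the study set Abcg1 cKO against the 8 control and Abca1 cKO libraries taken as 1 group, here called the combined group.

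The promoter that drives the Cre is that of a gene of the adrenal cortex, whereas the granule genes belong to the medulla, and a whole gland holds both. Adrenal glands could be told by their markers. Summed over 8 cortex markers, which included the steroidogenic genes Star and Cyp11b1, the mean normalized counts were 1481885 in the combined group and 1718307 in Abcg1 cKO. Th and Dbh, enzymes of catecholamine synthesis in the medulla, were present in both. Abcg1 itself had a mean of 305.4 normalized counts in the combined group and 249.7 in Abcg1 cKO, a log2 ratio of -0.29, which counts reads over the whole gene and from cells without recombination as well. For each gene the values are the authors' mean normalized counts of the 2 groups. The values of single libraries were not used, because no label ties them to a group, and the authors' own test of this contrast was not used either. No spread between mice, standard error or test is therefore given for any difference below, and the depth of the single libraries is not known from these means. Every log2 ratio is Abcg1 cKO over the combined group, with 1 added to each mean, and 14284 genes with an average of the 2 means of at least 10 were compared. Their median log2 ratio was 0.0021 and 50.5% lay above 0.

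Granins are acidic proteins that bind calcium and catecholamines and help to form the granule. Like the precursors of neuropeptides, they enter the secretory pathway whole. Inside the maturing granule the convertases cleave them after pairs of basic amino acids, carboxypeptidase E trims the basic residues off, and some peptides are then amidated. Chromaffin cells release the peptides together with adrenaline and noradrenaline. In many neuroendocrine cells, cyclic AMP acts on such genes through the cyclic AMP response element (CRE), whose letters are TGACGTCA.

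The upstream sequences of the granin and convertase genes are shown for their CRE letters. The choice of genes used no sequence, but such genes are known for the CRE. Its share over all windows is therefore no independent test. RefSeq promoter sequence (GRCm38.p6) was matched for 8 of the 10 genes, all but Penk and Vgf, and the 250 bases before each transcription start were searched on both strands. The full CRE was found upstream of 3 of the 8 genes, and in 1.55% of all 32851 windows of the same length. The lines give 30 bases around each match on the gene's own strand, 5′ to 3′, with the 8 CRE letters in capitals.
Scg2, chr1:79440076-79440105, minus strand: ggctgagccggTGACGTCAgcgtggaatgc
Chgb, chr2:132781559-132781588, plus strand: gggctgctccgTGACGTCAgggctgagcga
Pcsk1, chr13:75089768-75089797, plus strand: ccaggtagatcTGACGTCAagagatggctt
The matches began 68, 72 and 78 bases before the RefSeq start of Scg2, Chgb and Pcsk1, respectively. Both the Scg2 and the Chgb window lay inside an exon of the GENCODE annotation, whose start lies further upstream than that of RefSeq. The Pcsk1 window lay outside every GENCODE exon.

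The first 5 letters of the element, TGACG, were searched separately, and these matches include those inside a full CRE. They were found in 7 of the 8 windows, the exception being Npy, against 17.8% of all windows. For the 4 genes with these letters and no full CRE, the 30 bases around the match were as follows, with the 5 letters in capitals.
Chga, chr12:102554885-102554914, plus strand: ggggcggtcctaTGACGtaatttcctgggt
Scg3, chr9:75684069-75684098, minus strand: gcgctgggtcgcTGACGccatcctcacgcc
Scg5, chr2:113829249-113829278, minus strand: aaaggaggtaaaTGACGttcataggggtcg
Pcsk2, chr2:143546087-143546116, plus strand: ctggcgggcgcgCGTCAcccgggctggcgc
In Pcsk2 the letters lie on the other strand and so read CGTCA. The matches began 44, 30, 175 and 34 bases before the start of Chga, Scg3, Scg5 and Pcsk2, respectively. Pcsk1 held a second run of these letters 50 bases before its start, and the stretch below holds both it and the full CRE in capitals.
Pcsk1, chr13:75089726-75089825, plus strand: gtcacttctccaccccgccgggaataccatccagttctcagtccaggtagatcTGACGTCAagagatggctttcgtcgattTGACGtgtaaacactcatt
The AP-1 letters TGANTCA and the TATA letters TATAAA were in none of the 8 windows, and in 6.75% and 12.4% of all windows. The GC box GGGCGG was in 5 of the 8 windows against 32.7% of all, and the E box CANNTG in 5 of the 8 against 66.2%. Of the 5 catecholamine genes with a window, 1 held a full CRE (Th, which encodes tyrosine hydroxylase) and 3 held the 5 letters TGACG (Th, Dbh and Gch1). A match of letters is a description of the sequence and shows no binding.

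**Figure D1:**
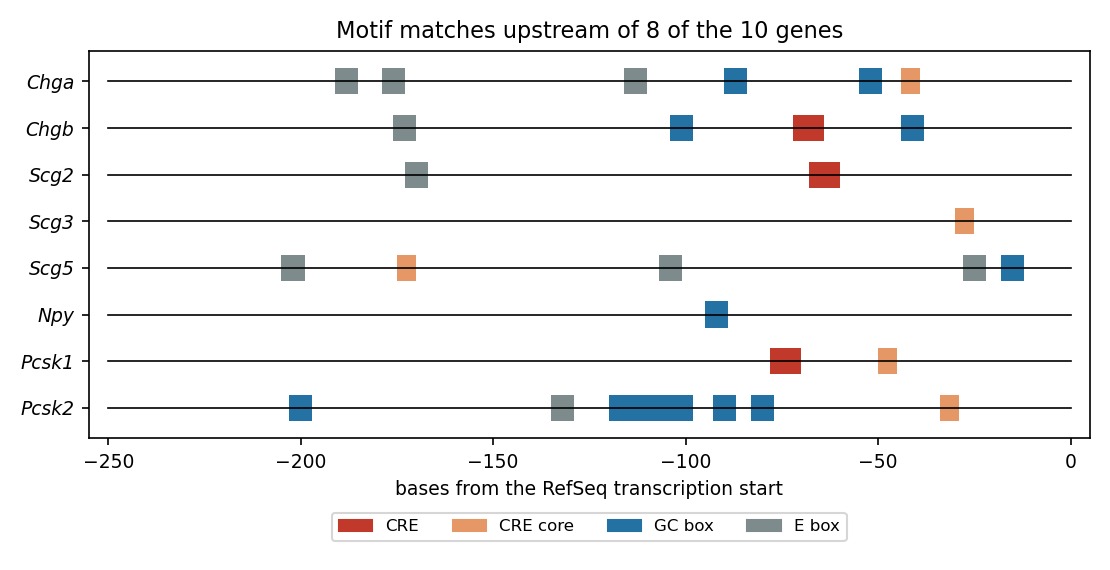
Each row is the 250 bases before the RefSeq start of 1 gene, with the distance from the start in bases on the x axis and coloured boxes at the matches on either strand (CRE, its 5-letter core outside a full CRE, GC box and E box). The full CRE matches of Chgb, Scg2 and Pcsk1 begin between 68 and 78 bases before the start.

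The coding sequences were searched for acidic codons and for pairs of basic codons, which are possible convertase sites. Over the longest coding transcript of each gene (GENCODE, GRCm38), codons for acidic residues made up 21.8% of Chga, 23.2% of Chgb, 19.1% of Scg2, 19.7% of Scg3 and 20.3% of Vgf, against a median of 11.2% over 21503 coding genes. The acidic share of these 5 granins was at or above percentile 97.0 of all coding genes. In Penk, which is not a granin, it was 17.2%, at percentile 94.2. It was 14.6% in Scg5, 12.7% in Pcsk1, 12.6% in Pcsk2 and 12.4% in Npy. Adjacent pairs of basic codons numbered 23 in Chgb, 16 in Vgf and 9 each in Chga and Scg2. The convertases themselves held 16 in Pcsk2 and 12 in Pcsk1. Per 100 codons the value was highest in Penk at 4.48, from 12 pairs in 268 codons, followed by 3.4 in Chgb and 3.3 in Scg5, and the median over coding genes was 1.4. Scg2 at 1.46, Scg3 at 1.49 and Pcsk1 at 1.59 lay near that median.

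Penk, the enkephalin precursor, held 7 codon copies of an enkephalin, 6 of Met-enkephalin and 1 of Leu-enkephalin. All 7 had a basic pair before them and 5 had a basic pair after. Codons 98 to 113, in exon 2, are shown because they hold 2 neighbouring Met-enkephalin copies, in capitals, each set between basic pairs.
Penk, chr4:4134307-4134354, minus strand: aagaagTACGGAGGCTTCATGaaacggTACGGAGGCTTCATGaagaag
In Npy, the precursor of neuropeptide Y, codons 59 to 71 span the junction of exons 2 and 3 between positions 49823772 and 49827513 of chromosome 6, plus strand. They hold a glycine codon followed by a basic pair, in capitals, which is the signal for cleavage and amidation of the peptide's end.
Npy: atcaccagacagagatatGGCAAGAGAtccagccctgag

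Every one of the 10 genes had a higher mean in Abcg1 cKO than in the combined group, against 50.5% of all genes compared. In 9 of the 10 the ratio of means was past a fold of 1.2, against 10.6% of all genes compared. The study used this fold only together with a cutoff on the adjusted P-value, which was not applied here. A gene past the fold here need not meet the study's criterion. None of the 10 was past that fold in the lower direction, where 1707 of the 14284 genes compared lay, and counted in either direction the share of all genes compared was 22.5%. The median log2 ratio of the 10 genes was 0.40, from 0.20 in Penk to 1.51 in Vgf. Vgf and Pcsk1, 2 of the 10, were past a fold of 1.5, against 2.70% of all genes compared. Summed, the 10 genes gave 140671 normalized counts in the combined group and 188749 in Abcg1 cKO, or 0.768% and 0.999% of all normalized counts. Those totals include the ribosomal RNA gene Rn45s, which had an average of the 2 means of 380871 and a log2 ratio of -2.47. In whole glands, a different number of chromaffin cells and a different amount of RNA per cell cannot be told apart. Without a spread between libraries it is also not known how far such means differ between mice of 1 group.

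**Figure D2:**
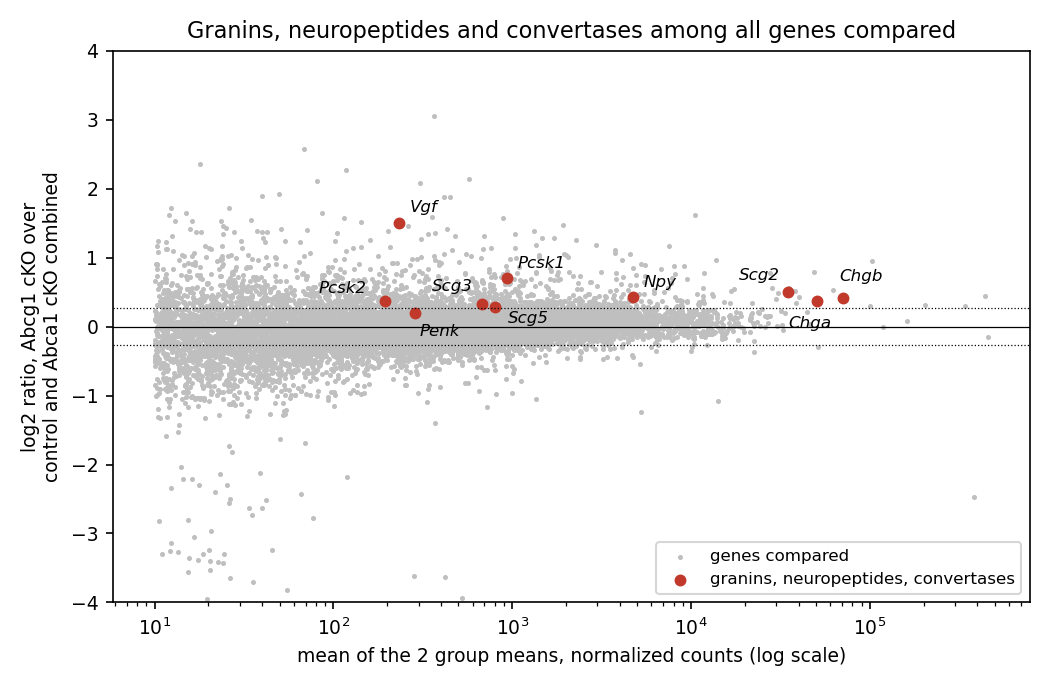
Each grey point is 1 of 14284 genes compared and each red point 1 of the 10 granin, neuropeptide and convertase genes; the x axis is the average of the 2 group means in normalized counts (log scale) and the y axis the log2 ratio of Abcg1 cKO over the combined group. Dotted lines mark a fold of 1.2 in either direction, 4 genes lie outside the axis limits, and all 10 red points lie above 0 with Vgf highest at 1.51.

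Levels are compared between genes only per kilobase of transcript. In the combined group the 10 genes spanned from 23516 normalized counts per kilobase in Chga to 36.1 in Pcsk2. The 13775 genes compared that had a length were ranked by level per kilobase, averaged over the 2 groups. Chga stood at rank 16, Chgb at rank 20, Scg2 at rank 54 and Npy at rank 133. Chga, Chgb, Scg2 and Npy together held 98.1% of the per kilobase sum of the 10 genes, in the combined group and in Abcg1 cKO alike. The next level down was Scg5 at 597 per kilobase, followed by Scg3 at 252, Penk at 184, Pcsk1 at 141, Vgf at 42.7 and Pcsk2 at 36.1. In Abcg1 cKO Pcsk1, at 229 per kilobase, stood above Penk, at 211, and the other places were the same. Whether neighbours in this order differ beyond the spread between mice is not known.

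**Figure D3:**
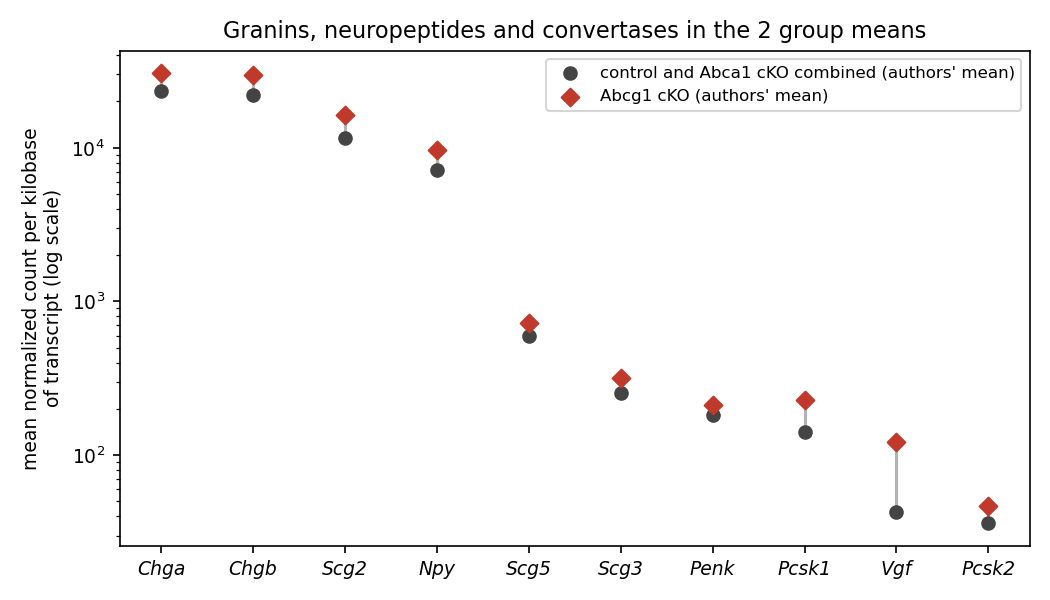
The y axis (log scale) gives the authors' mean normalized count per kilobase of transcript for each of the 10 genes on the x axis, as a grey circle for the combined group and a red diamond for Abcg1 cKO; no error can be drawn for these means. Chga, Chgb, Scg2 and Npy lie at 7173 per kilobase or higher and the other 6 genes at 729 or lower in both groups, and the widest gap between the 2 symbols is that of Vgf.

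Chromogranin A and chromogranin B are the main soluble proteins of the granule. Chga (ENSMUSG00000021194, chr12:102554969-102565028, plus strand, 8 exons) had a mean of 44281 normalized counts in the combined group and 57501 in Abcg1 cKO, a ratio of 1.30 and a log2 ratio of 0.38. Chgb (ENSMUSG00000027350, chr2:132781278-132795079, plus strand, 5 exons) had means of 60638 and 81136, a ratio of 1.34 and a log2 ratio of 0.42. Per kilobase the ratio of Chgb to Chga was 0.941 in the combined group and 0.970 in Abcg1 cKO, a difference of 0.04 on the log2 scale. Among the log2 ratios of all genes compared they stood at percentiles 94.0 and 94.9.

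Secretogranin II is the precursor of the peptide secretoneurin. Scg2 (ENSMUSG00000050711, chr1:79434669-79440120, minus strand, 2 exons) had means of 29103 and 41012 normalized counts, a ratio of 1.41 and a log2 ratio of 0.49, the highest among the 4 most abundant genes per kilobase. Its level per kilobase was 0.492 of that of Chga in the combined group and 0.534 in Abcg1 cKO. Secretogranin III binds chromogranin A and the cholesterol-rich granule membrane. Scg3 (ENSMUSG00000032181, chr9:75643189-75684056, minus strand, 12 exons) had means of 601 and 757 normalized counts and a log2 ratio of 0.33. An annotated gene, Gm37871, overlaps Scg3 on the opposite strand. It was not among the genes compared.

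Scg5 encodes a chaperone that binds the proform of prohormone convertase 2 and is needed for its activity. The gene (ENSMUSG00000023236, chr2:113776362-113829121, minus strand, 6 exons) had means of 722 and 880 normalized counts, a ratio of 1.22 and a log2 ratio of 0.29. Its partner Pcsk2 (ENSMUSG00000027419, chr2:143546156-143816285, plus strand, 12 exons) had means of 170 and 219.8 normalized counts, a ratio of 1.29 and a log2 ratio of 0.36. Per kilobase Pcsk2 was 0.0604 of Scg5 in the combined group and 0.0639 in Abcg1 cKO. The annotation places the antisense genes Pcsk2os1 and Pcsk2os2 over Pcsk2, of which 1 was compared. The sources used here do not say whether counting used the strand, so reads of Pcsk2 and of its antisense genes may not have been told apart, and the same holds for the overlapping genes of Scg3 and Penk.

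Vgf, named for its induction by nerve growth factor, encodes a granin-like precursor of several peptides. It stood apart from the other 9 genes. Vgf (ENSMUSG00000037428, chr5:137026392-137033351, plus strand, 5 exons) had a mean of 121 normalized counts in the combined group and 345 in Abcg1 cKO. The ratio of means was 2.86 and the log2 ratio 1.51, which was rank 26 of 14284 from the highest. The ratio of Vgf to Chga, taken without the added 1, was higher in Abcg1 cKO by 1.14 on the log2 scale. The nearest compared genes beside it were Plod3, at a log2 ratio of 0.34, and Ap1s1, at 0.08. How many of the 4 Abcg1 cKO libraries carried the higher Vgf mean is not known from group means.

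Pcsk1 encodes prohormone convertase 1, which makes the first cuts in many precursors. The gene (ENSMUSG00000021587, chr13:75089826-75134861, plus strand, 14 exons) had means of 710 and 1152 normalized counts, a ratio of 1.62 and a log2 ratio of 0.70, which was rank 271 of 14284. Per kilobase, Pcsk1 was 3.90 times the level of Pcsk2 in the combined group and 4.91 times in Abcg1 cKO. Pcsk1n, which encodes proSAAS, an inhibitor of this convertase, had means of 1405 and 1604 normalized counts and a log2 ratio of 0.19. The ratio of Pcsk1 to Pcsk1n per kilobase was accordingly 0.220 in the combined group and 0.313 in Abcg1 cKO.

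Of the neuropeptide precursors, Npy (ENSMUSG00000029819, chr6:49822710-49829507, plus strand, 4 exons) had means of 4060 and 5440 normalized counts, a ratio of 1.34 and a log2 ratio of 0.42. Penk (ENSMUSG00000045573, chr4:4133531-4138819, minus strand, 2 exons) had means of 266 and 306, a ratio of 1.15 and a log2 ratio of 0.20, and was the only one of the 10 genes short of a fold of 1.2. Per kilobase Npy was 39.1 times Penk in the combined group and 45.5 times in Abcg1 cKO. Penk marks the adrenaline-making chromaffin cells, as does Pnmt, the enzyme that makes adrenaline from noradrenaline. Pnmt had means of 4908 and 8747 and a log2 ratio of 0.83, so that the ratio of Penk to Pnmt had a lower value in Abcg1 cKO by 0.63 on the log2 scale. A830012C17Rik lies on the opposite strand of Penk and was not among the genes compared.

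The genes around the 10 loci had log2 ratios on both sides of 0. Of the 20 nearest compared genes on either side, 1 was past a fold of 1.2 in the higher direction (Plod3), against 10.6% of all genes compared, and 5 were past it in the lower direction, against 1707 of 14284. The median log2 ratio of the 20 was -0.02, with a range from -0.64 in Fmn1, beside Scg5, to 0.34.

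The 8 genes that make and load catecholamines had a median log2 ratio of 0.44, beside 0.40 for the 10 granule genes. All 8 had a higher mean in Abcg1 cKO, against 50.5% of all genes compared. Of the 8, 7 were past a fold of 1.2, the background share being the same 10.6% of all genes compared. Th had means of 8765 and 14984 normalized counts (log2 ratio 0.77), and Dbh, which makes noradrenaline inside the granule, had 9952 and 12559 (0.34). The vesicular monoamine transporters Slc18a1 and Slc18a2, which load catecholamines into the granule, had log2 ratios of 0.48 and 0.41. Gch1, which makes the cofactor of tyrosine hydroxylase, stood at 0.47, Ddc, the decarboxylase that makes dopamine, at 0.29, and Cyb561, the electron carrier of the granule membrane, at 0.25. Relative to the median of these 8 genes, Vgf lay 1.06 higher on the log2 scale and Pcsk1 0.25 higher, while Scg2, Npy, Chgb, Chga and Pcsk2 lay within 0.08 of it. Scg3, Scg5 and Penk had values relative to it of -0.11, -0.16 and -0.24. The ratio of Chga to Dbh differed between the groups by 0.04 on the log2 scale. The 2 lists were measured in the same libraries and chosen with earlier results of these data known. Their agreement in direction is therefore a description of these means.

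Of the 11 other genes of prohormone processing, 5 had a log2 ratio above 0 and 6 below. Against 10.6% of all genes compared, 2 of the 11 were past a fold of 1.2 in the higher direction and none was past it in the lower, and the median log2 ratio was -0.0037. Cpe, which encodes carboxypeptidase E, had means of 16325 and 14564 normalized counts (log2 ratio -0.16). Pam, the amidating enzyme, stood at -0.05 with means of 7660 and 7410. The convertases that also work outside the granule had log2 ratios of -0.0037 for Furin, 0.06 for Pcsk5 and -0.13 for Pcsk7, and Pcsk6, with means of 70.5 and 90.7, stood at 0.36. Aplp1, an amyloid precursor-like protein, was, beside Pcsk6, the other gene past the fold, at 0.32. The carboxypeptidase Cpd (-0.05), cathepsin L (Ctsl, -0.01) and Qpct, which forms the modified N terminus of some peptides (0.11), had small differences. Cpe, Pam, Furin, Ctsl and Pcsk5 are also made in many cells outside the medulla.

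Of 13 other adrenal peptide genes, 6 had enough counts to be compared, of which 1 was past a fold of 1.2 in the higher direction, against 10.6% of all genes compared, and 2 in the lower, with a median log2 ratio of 0.0032. Gal, the galanin precursor, had means of 808 and 1103 normalized counts and a log2 ratio of 0.45. Resp18, a granule protein of neuroendocrine cells, had 1392 and 1636 (0.23), and Cartpt had 103 and 113 (0.13). Adrenomedullin, encoded by Adm, stood at -0.13. The genes with lower means were Vip, which encodes vasoactive intestinal peptide (28.1 and 15.0, log2 ratio -0.87), and Nmb, which encodes neuromedin B (28.3 and 18.6, -0.58). Adcyap1, Sst, Tac1, Pdyn, Nts, Calca and Nppc were too low to be compared, with no mean above 6.12.

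Among 9 genes of receptors for neuropeptide Y and opioid peptides and of receptor-like proteins, 5 were compared. Of these 5, 3 were past a fold of 1.2 in the higher direction, against 10.6% of all genes compared. In the lower direction 1 was past it, against 1707 of all 14284 genes compared. The median log2 ratio of the 5 was 0.37. Npy2r, a receptor of neuropeptide Y, had means of 283 and 365 normalized counts (log2 ratio 0.37), whereas Npy1r had 50.5 and 51.4 (0.02). Oprd1, the delta opioid receptor, had means of 20.8 and 28.4 (0.43). The receptor-like genes Gpr37l1 and Gpr37 stood at 0.55 and -0.49. Npy4r, Npy5r, Oprk1 and Oprm1 were below the limit, and Oprk1, the kappa opioid receptor, was listed at 0 in the combined group.

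The membrane and release machinery of the granule lay between. Of 26 compared genes of 27, 10 were past a fold of 1.2 in the higher direction, against 10.6% of all genes compared. None was past it in the lower direction, and 23 had a log2 ratio above 0, against 50.5% of all genes compared. The median was 0.22. The 4 with the highest mean were Atp6ap1 and Atp6ap2, accessory proteins of the proton pump that acidifies the granule (log2 ratios 0.26 and 0.13), Vamp2, a fusion protein (-0.15), and Ptprn, a granule membrane protein (0.31). Ptprn had means of 1537 and 1901 normalized counts.

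**Figure D4:**
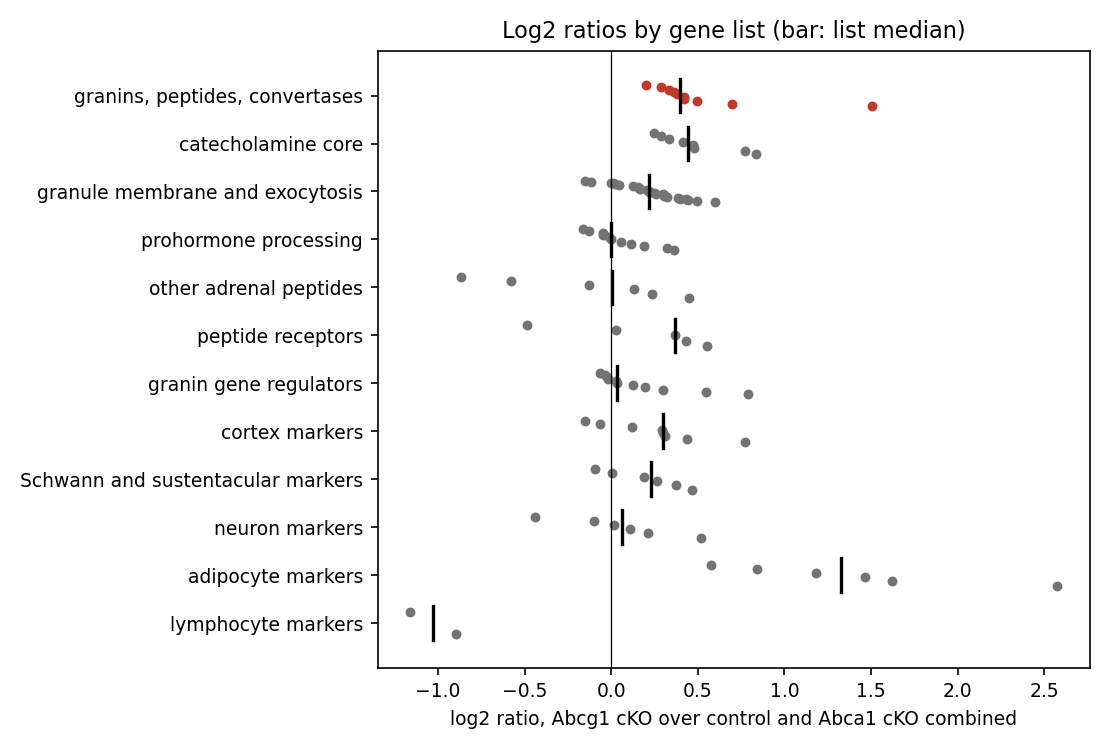
Each point is 1 compared gene, placed on the x axis by its log2 ratio of Abcg1 cKO over the combined group, with 1 row per gene list and a black bar at the list's median. The bar of the granin, neuropeptide and convertase genes lies at 0.40 and that of the catecholamine genes at 0.44. The bars of the prohormone processing genes and other adrenal peptides lie at -0.0037 and 0.0032. Those of the peptide receptors, cortex markers and adipocyte markers lie at 0.37, 0.30 and 1.33.

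Among 11 genes for transcription factors known to act on granin genes or in chromaffin cells, 3 were past a fold of 1.2 in the higher direction, against 10.6% of all genes compared, and none in the lower, and the median log2 ratio was 0.03. Crem, which encodes activators and repressors that bind the CRE, had means of 995 and 1719 normalized counts (log2 ratio 0.79). Egr1, an early growth response factor, had 1964 and 2872 (0.55). Hand2 (0.30), a factor of the sympathoadrenal lineage, was also past the fold. The other CRE-binding genes had ratios near 0, at -0.04 for Creb1 and -0.02 for Atf1. Rest, the repressor of neuronal genes, stood at 0.02. Insm1 (0.12), Phox2a (0.03), Gata2 (0.19), Gata3 (-0.07) and Sp1 (-0.03) stayed short of the fold. These are RNA levels of the whole gland, and several of these factors are made in the cortex as well.

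Markers of several other cell types also had different means in the 2 groups. All 6 adipocyte markers were higher in Abcg1 cKO, against 50.5% of all genes compared. Their median log2 ratio was 1.33, and their sum was 8160 normalized counts in the combined group and 22493 in Abcg1 cKO. Both compared lymphocyte markers of 4 were lower, against 49.5% of all genes compared. Their median was -1.03, and the sums over all 4 were 58.1 and 27.3. Of 8 cortex markers, 5 were past a fold of 1.2 in the higher direction, against 10.6% of all genes compared, with a median of 0.30. Schwann and sustentacular markers had a median of 0.23 over 6 compared genes of 8, with sums of 345 and 374. Neuron markers, whose cells also make granins, had a median of 0.06 over 6 compared genes of 7, and sums of 604 and 663. Zona glomerulosa, endothelial and macrophage markers had medians of -0.13, -0.06 and 0.05. The noradrenergic markers had log2 ratios of 0.22 for Cox8b, 0.20 for Lix1 and -0.34 for Cuedc1. The part of these cells in the higher granule gene means was not tested. The hormone genes of the pancreatic islet, another granin-rich tissue, were at or near 0: Ins1 was listed at 0 in both groups, Ins2 at 0.221 and 0, and Gcg at 0.0858 and 0. Of the other pancreas markers listed, Prss1 stood at 0.0957 and 0, whereas Cela1 had means of 1167 and 1234 (log2 ratio 0.08).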

How the data were processed

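RNA of whole adrenal glands was sequenced in 12 libraries (polyA-enriched, stranded kit, NovaSeq and NextSeq instruments). The submitters' processing notes and the methods state that the authors prepared reads with bcl2fastq 2.20.0.422, cutadapt 4.0, FastQC 0.11.9 and BBTools. Alignment to mm10 was done with STAR 2.7.10a, counting of unique alignments with HTSeq 0.13.5 and normalization with DESeq2 1.38.3. The sources used here do not give the instrument of each library.

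The signal values used are the mean normalized counts that the authors deposited for Abcg1 cKO and for control and Abca1 cKO combined. The deposited mean over all libraries, another value of the same normalized counts, served only to check that the group means weigh 4 and 8 libraries (largest difference 6.7e-05). Another 12 columns, 1 per library, could not be tied to samples by their names and were left out of every step. The 4 columns of the authors' own comparison hold fold changes, their errors and p-values and were not used. Because the library columns could not be tied to samples, the planned tests over libraries (limma) and comparisons with control alone could not be made. The errors in the authors' own comparison were not read, so no precision is given here.

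Log2 ratios took a pseudocount of 1, which understates differences of low genes. Genes with an average of the 2 means of at least 10 were compared. A gene was counted as past the threshold at a ratio of 1.2, or 1.5 (with the pseudocount). Levels per kilobase use the principal GENCODE vM21 transcript. Motif letters were searched in RefSeq upstream sequence, and codons were read from GENCODE transcripts. The calculation was tested on simulated data in which every planted fold was larger than both thresholds, so that test does not bear on genes near them. Python 3.11.15, pandas 2.3.3, NumPy 2.4.6 and Matplotlib 3.10.9 were used. The genes and lists were chosen with earlier results of these data known. All 10 genes are named, the measured genes of 5 lists (prohormone processing, other peptides, receptors, catecholamine genes, regulators), the 4 highest of the granule membrane list, and single genes of the marker lists. A few regulator and chromaffin marker genes first set for these lists were left out of them and are not reported here. Plod3, Ap1s1, Fmn1 and Rn45s were named after their values were seen.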

Additional observations from a re-analysis of the deposited data

How the results depend on the processing

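No paired analysis was possible because the single-library columns could not be tied to samples by name. For the same reason the fits that leave out each library, that use the replicate number as a block, or that use DESeq2 or edgeR on recovered reads were not run. Of 60 alternatives that were run, 58 kept the direction and size of the value, among them all 40 values of single genes. Size counted as kept within 0.1 on the log2 scale or, for a count, within a factor of 1.5. For the median relative to the catecholamine genes, that limit of 0.1 is wider than the value itself. Many of them could hardly change a value. All 10 genes stayed in without a limit on the average mean and with a limit of 50, and the pseudocounts were small beside their counts. None of the alternatives concerned the spread between mice, so their number is no measure of how firm the differences are. The median log2 ratio of the 10 genes was 0.40 with pseudocounts of 0.1 and 10, 0.40 after centring on the median of all genes compared, and 0.35 after rescaling both groups to the same total, where 8 rather than 9 genes were past a fold of 1.2. At a fold of 1.5 the count was 2. Without Vgf the median was 0.38, and without Vgf and Pcsk1 it was 0.37, alternatives added after the data were seen. The median relative to the catecholamine genes was -0.0454, and its sign changed, to 0.0628, relative to the chromaffin marker list without the 10 genes, so which list lies higher depends on the genes chosen for the comparison. Neither depth nor platform of single libraries could be weighed for any value.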
